A study of Mus musculus with 5 samples.

Results

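Cd74, H2-Aa, H2-Ab1 and H2-Eb1 encode the core chains of the mouse major histocompatibility complex (MHC) class II molecule, and they are 4 of 16934 gene symbols listed over 5 Drop-seq libraries of mouse kidney. They were chosen by symbol, with earlier results of these data known, and their levels are therefore given as a description with no test. Drop-seq captures polyadenylated RNA of single cells on barcoded beads and counts each transcript once through a unique molecular identifier (UMI). The libraries were 1 of outer medulla, 1 of inner medulla, 1 of cortex and 2 of whole kidney, called whole kidney 2 and whole kidney 1 after their labels. All came from untreated wild type mice of the strain labelled C56BL/6N, and the labels give no age, no number of animals and nothing that tells whether libraries shared an animal. Kidneys were flushed with cold buffer, digested with a protease active in the cold, fixed in methanol and stored frozen before encapsulation.

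Class II molecules present peptides from endocytosed proteins to CD4+ T cells, and macrophages, dendritic cells and B cells carry them at high levels. The H2-Aa and H2-Ab1 products pair as the alpha and beta chain of the I-A molecule, H2-Eb1 encodes the beta chain of the I-E molecule, and Cd74 encodes the invariant chain that guides newly made class II dimers to the endosome. Interferon gamma can switch these genes on in many other cells, kidney tubule cells among them, through the transactivator encoded by Ciita.

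The promoters of class II genes hold a shared stretch of short elements, among them the X box, bound by the RFX complex, and the Y box, bound by NF-Y. Windows of 250 bases ending just before the annotated start were taken from RefSeq on build GRCm38.p6 and matched by symbol, which found 2 of the 4 members, H2-Aa and H2-Eb1, and not H2-Ab1 or Cd74. They are shown because the members were counted together in the same cells. The H2-Aa window is chr17:34287824-34288073 on the minus strand, and the H2-Eb1 window is chr17:34305617-34305866 on the plus strand. Capitals mark the letters CTNGCAAC, searched as X box letters, and then CTGATTGG, searched as Y box letters, which do not overlap.
H2-Aa: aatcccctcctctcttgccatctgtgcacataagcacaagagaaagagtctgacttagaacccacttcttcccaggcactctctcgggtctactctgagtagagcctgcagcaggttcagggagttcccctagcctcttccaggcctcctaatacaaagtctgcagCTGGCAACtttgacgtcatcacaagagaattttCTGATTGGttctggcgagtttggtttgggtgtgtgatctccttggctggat
H2-Eb1: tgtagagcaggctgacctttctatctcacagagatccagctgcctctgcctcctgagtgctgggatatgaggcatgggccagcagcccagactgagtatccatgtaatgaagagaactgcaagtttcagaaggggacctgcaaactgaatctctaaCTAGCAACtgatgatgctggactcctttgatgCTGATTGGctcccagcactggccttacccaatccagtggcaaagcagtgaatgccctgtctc

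In the H2-Aa window the X box letters read CTGGCAAC and began 84 bases before the start, with the Y box letters 51 bases before it. In the H2-Eb1 window they read CTAGCAAC and began 94 bases before the start, with the Y box letters 62 bases before it. The spacing from the first base of one element to that of the other was 33 bases in H2-Aa and 32 bases in H2-Eb1. Searched on both strands, the X box letters were in 933 of 32851 RefSeq promoter windows of this length (2.84%) and the Y box letters in 1258 (3.83%). The X box letters followed by the Y box letters on the gene's own strand within 60 bases were in 7 windows (0.0213%). These letters were chosen after the sequences had been seen, and of 10 other class II pathway genes with a window, 0 held that arrangement.

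The 5 libraries held 12099 cells of at least 200 detected genes after 22 marked doublets were removed: 2422 in outer medulla, 894 in inner medulla, 3070 in cortex, 3304 in whole kidney 2 and 2409 in whole kidney 1. Total UMIs were 1748127, 517887, 2557141, 2882062 and 1826673 in the same order, and the median cell had 440 to 516.5 UMIs by library. Cells were clustered without the class II genes and named from marker lists, and 4 of 12094 cell barcodes occurred in more than 1 library. Proximal tubule-like cells, the bulk of the kidney cortex, made up 8520 of the cells, beside the interferon-led ones. Levels below are counts per 1000000 UMIs (CPM), taken over the summed UMIs of a group. A positive cell has at least 1 UMI of any of the 4 genes. Intervals are exact 95% intervals that cover counting error only, since cells of 1 library are not replicates and each region has 1 library. In all cells together the 4 genes gave 2870 UMIs, of which Cd74 gave 1258, H2-Ab1 789, H2-Aa 452 and H2-Eb1 371, and 771 cells (6.37%) were positive.

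Class II transcripts were most abundant in the macrophage-like cells, far lower in most tubule cells, and at an intermediate level in 1 cluster of proximal tubule-like cells led by interferon-induced genes. The 92 macrophage-like cells held 1291 of the 2870 UMIs. The 191 cells of the interferon-led cluster held 440 UMIs, and the other 8520 proximal tubule-like cells held 985. Barcodes of 50 to 99 genes, too poor in RNA to be called cells, had a higher class II level than tubule cells, and they are set beside the cells throughout.

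**Figure D1:**
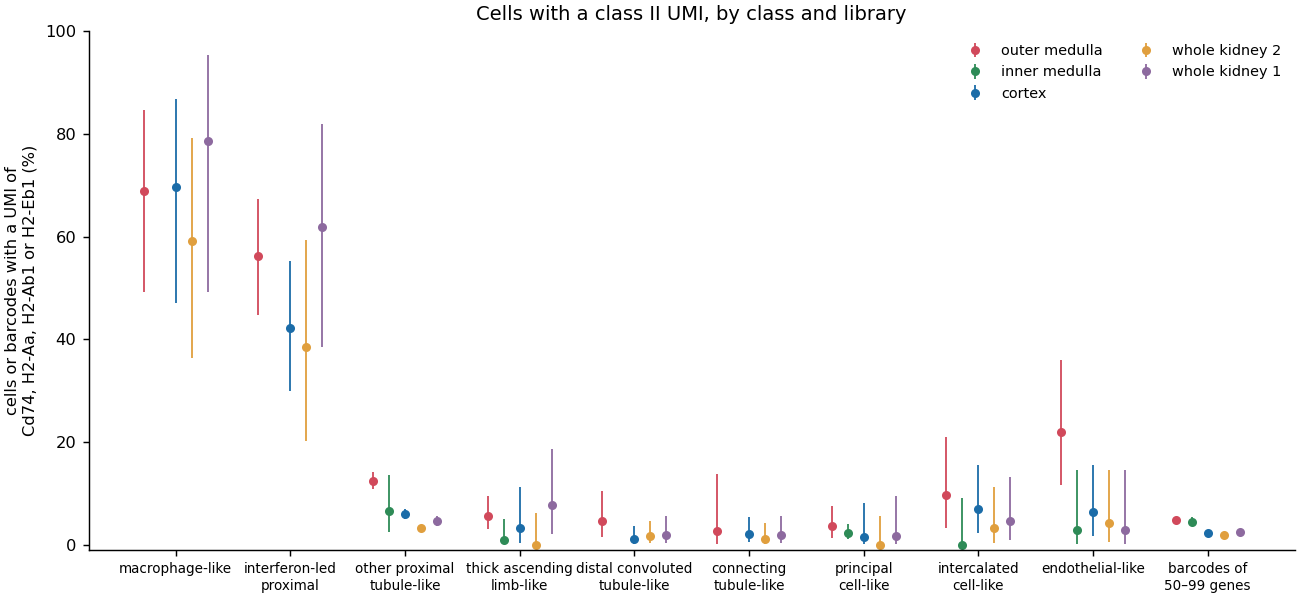
Share of positive cells, with at least 1 class II UMI, in percent, for each cell class and for barcodes of 50 to 99 genes, with 1 point per library and a bar for the exact 95% interval. The macrophage-like points lie between 59.1% and 78.6%, the interferon-led proximal points between 38.5% and 61.9%, and the points of the other proximal tubule-like cells between 3.16% and 12.4%.

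In macrophage-like cells, 69.0% of 29 cells were positive in outer medulla, 3 of 4 in inner medulla, 69.6% of 23 in cortex, 59.1% of 22 in whole kidney 2 and 78.6% of 14 in whole kidney 1. The pooled share was 68.5% (63 of 92, interval 58.0 to 77.8%) at a median depth of 373 UMIs. The summed class II level was 23038 CPM in outer medulla, 69343 CPM in inner medulla, 29205 CPM in cortex, 21941 CPM in whole kidney 2 and 44397 CPM in whole kidney 1. The value of inner medulla rests on 4 cells, and 71 of its 152 UMIs lay in 1 of them. Over all libraries the level was 29779 CPM (28176 to 31449).

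Cd74 was at 12663 CPM in macrophage-like cells (549 UMIs in 59 cells), H2-Ab1 at 6966 CPM (302 in 50 cells), H2-Aa at 5928 CPM (257 in 53 cells) and H2-Eb1 at 4221 CPM (183 in 45 cells). Since each UMI is 1 transcript primed at its 3′ end, these levels are per transcript molecule and are not scaled by gene length. A positive macrophage-like cell had a median of 15 class II UMIs, the highest had 86, and 38 of the 92 cells (41.3%) had at least 10. Of the 63 positive cells, 56 (88.9%) had UMIs of at least 2 of the 4 genes and 37 had all 4.

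The macrophage-like class was led by Lyz2, Jchain, Cd52, C1qb and Fcer1g beside the class II genes. In this class 73 cells had a UMI of the macrophage markers, all 16 of which were detected. T and NK cell markers gave 42 UMIs in 14 of its cells, dendritic cell markers 34 UMIs in 20 cells and B cell markers 4 UMIs. It was not uniform. The class was split further after its values had been seen, and 22 cells with the complement genes C1qc and C1qb among their leading genes held 728 of its UMIs, at 85738 CPM with 90.9% positive. A group of 12 cells with Lyz2, Chil3 and the monocyte gene Ly6c2 among its leading genes was at 21976 CPM with 33.3% positive. A group of 18 cells led by Gzma and Siglech was at 13603 CPM with 44.4% positive and held 30 of the T and NK cell marker UMIs, and 26 cells led by the immunoglobulin joining chain gene Jchain were at 12290 CPM with 73.1% positive. Proximal tubule markers gave 1545 UMIs in 80 cells of the macrophage-like class, more than the 600 UMIs of the macrophage markers. Of the 1545 UMIs, 802 lay in the Jchain-led cells. Whether tubule RNA lowered the class II level there was not tested.

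**Figure D2:**
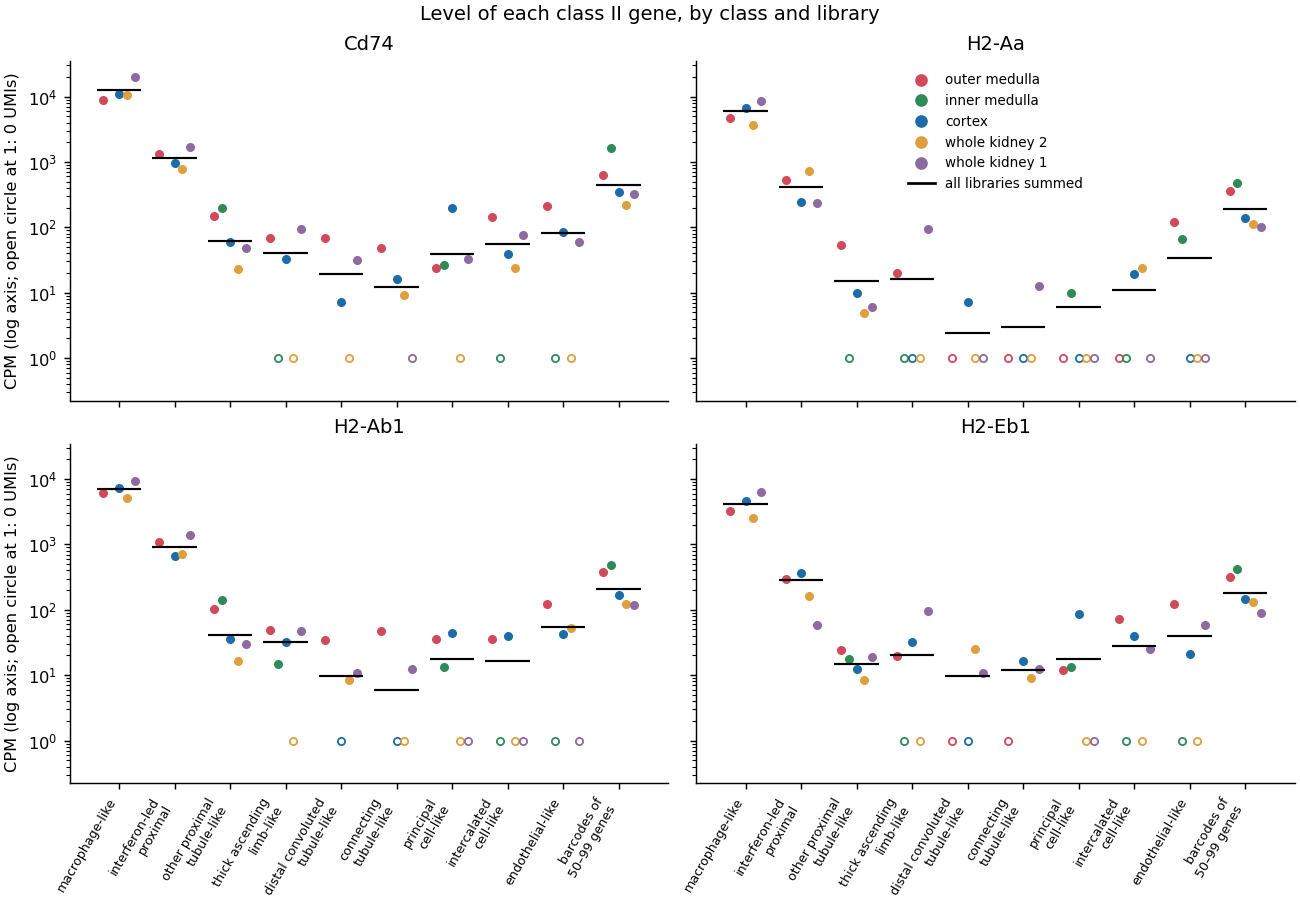
Level of Cd74, H2-Aa, H2-Ab1 and H2-Eb1 in CPM on a log axis, by cell group, with 1 point per library. For every gene the macrophage-like points lie highest, while the interferon-led proximal points overlap those of the low-gene barcodes, down to 59.5 CPM for H2-Eb1 in whole kidney 1. Cd74 reaches 12663 CPM in the macrophage-like cells pooled, 1149 CPM in the interferon-led cluster and 61.9 CPM in the other proximal tubule-like cells.

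Set against all tubule cells, where the 4 genes summed to 167 CPM (158 to 175), the macrophage-like level was 179-fold higher (166 to 193, log2 ratio 7.40 with a pseudocount of 10 CPM). By library, the fold was 56.9 (49.5 to 65.3) in outer medulla, 178 (155 to 206) in cortex, 341 (278 to 419) in whole kidney 2 and 345 (288 to 415) in whole kidney 1. All 4 genes lay past a 2-fold difference on the higher side, as did 13.8% of 10955 genes compared. H2-Aa differed by 292-fold (241 to 354), H2-Eb1 by 217-fold (175 to 268), Cd74 by 169-fold (150 to 189) and H2-Ab1 by 135-fold (116 to 156). Without the outer medulla the log2 ratio was 8.04, with cells put in classes by marker score it was 5.48, and with only the C1q and Lyz2-led macrophage groups it was 8.49.

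Genes that load or process class II peptides were followed through a list of which 8 were measured in this comparison. Past a 2-fold difference, 5 were higher in macrophage-like than in tubule cells, as were 13.8% of 10955 genes. The list median log2 ratio was 2.24, against a median of −0.41 over all genes. Ctss, the cathepsin that trims the invariant chain, was at 1199 CPM in macrophage-like cells, against 0.973 CPM in tubule cells. H2-DMa, a chain of the peptide exchange factor H2-M, was at 484 CPM in macrophage-like cells (21 UMIs) and 7.68 CPM in tubule cells (71 UMIs). H2-DMb1, its partner chain, was at 254 CPM in macrophage-like cells and 24.1 CPM in tubule cells. The other 2 on the higher side were Ifi30, a lysosomal thiol reductase, with 7 UMIs in macrophage-like cells, and March1, a ubiquitin ligase that removes class II molecules from the surface, with 5. Ctsl, the cathepsin that trims the invariant chain in thymic epithelium, was lower, as were 24.1% of genes, at 461 CPM in macrophage-like cells and 968 CPM in tubule cells. Of 7 regulators measured, Rfx5, Nfya and Nfyc were past 2-fold on the higher side, as were 13.8% of genes. These 3 had 1 to 5 UMIs in macrophage-like cells, so their ratios carry wide intervals.

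The interferon-led cluster was the tubule population with the most class II RNA. Its 10 leading genes were Iigp1, Cxcl10, Ubd, Gbp6, Gbp2, Igtp, Tgtp1, Gbp10, Irgm1 and Ifi47, mostly interferon-induced GTPases and a chemokine, and 13 of 16 proximal tubule markers were detected in at least 10% of its cells. It was set apart after the data had been seen, by having at least 3 genes of an interferon response list among its leading genes, and the class II genes took no part in the clustering. It held 80 cells in outer medulla, 0 in inner medulla, 64 in cortex, 26 in whole kidney 2 and 21 in whole kidney 1.

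Of the interferon-led cells, 56.3% were positive in outer medulla, 42.2% in cortex, 38.5% in whole kidney 2 and 61.9% in whole kidney 1. The mean over these 4 libraries was 49.7% ± 11.2 (SD, n = 4). Of the other proximal tubule-like cells, 12.4% were positive in outer medulla, 6.52% in inner medulla, 5.90% in cortex, 3.16% in whole kidney 2 and 4.56% in whole kidney 1. Their mean was 6.51% ± 3.54 (SD, n = 5). The ranges of the 2 populations did not overlap. The median depth was 495 UMIs in interferon-led cells and 522 in the others, and with cells thinned to 300 UMIs the pooled shares were 35.5% in interferon-led and 3.06% in other proximal tubule-like cells.

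The summed level was 3195 CPM in interferon-led cells of outer medulla, 2223 CPM in cortex, 2366 CPM in whole kidney 2 and 3333 CPM in whole kidney 1. In the other proximal tubule-like cells it was 330 CPM in outer medulla, 352 CPM in inner medulla, 118 CPM in cortex, 53.0 CPM in whole kidney 2 and 102 CPM in whole kidney 1. Each interferon-led value lay above every value of the others. The fold was 9.69 (8.17 to 11.5) in outer medulla, 18.8 (15.1 to 23.3) in cortex, 44.7 (30.9 to 63.5) in whole kidney 2 and 32.6 (23.6 to 44.6) in whole kidney 1, and 20.7 (18.4 to 23.1, log2 ratio 4.27) over the pooled cells. In whole kidney 1, 23 of the 56 UMIs came from 1 interferon-led cell, and in inner medulla 13 of the 20 UMIs came from 1 cell.

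All 4 genes were past a 2-fold difference in the pooled cells, against a background of 3.54% of 9828 genes on the higher side. Cd74 was at 1149 CPM in interferon-led cells, against 61.9 CPM in other proximal tubule-like cells (18.6-fold, 15.5 to 22.1). H2-Ab1 was at 905 CPM in interferon-led cells, against 41.4 CPM (21.9-fold, 17.8 to 26.7) in the others. H2-Aa was at 412 CPM in interferon-led cells, against 14.98 CPM (27.5-fold, 19.97 to 37.6) in the others. H2-Eb1 was at 281 CPM in interferon-led cells, against 14.6 CPM (19.3-fold, 13.3 to 27.5) in the others. The 4 intervals overlap, so the genes cannot be ordered by fold.

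Per library, Cd74 was at 1303 CPM in interferon-led cells of outer medulla, 955 CPM in cortex, 770 CPM in whole kidney 2 and 1667 CPM in whole kidney 1. H2-Ab1 was at 1070, 659, 715 and 1369 CPM in the interferon-led cells of the same libraries in that order. H2-Aa was at 527, 247, 715 and 238 CPM, and H2-Eb1 at 295, 362, 165 and 59.5 CPM, in that order. Cd74 had the highest level of the 4 genes in 4 of 4 libraries, while H2-Aa and H2-Ab1 had equal counts in whole kidney 2.

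Class II UMIs in these cells came with next to no macrophage transcripts. Unlike the class II genes, the macrophage markers were not kept out of the clustering, and they served to name clusters. Their scarcity in a proximal cluster can therefore follow in part from the way cells were put in classes. Macrophage markers gave 3 UMIs in 2 of the 191 interferon-led cells, 1 each of C1qa, Mpeg1 and Cd14, and 13 of the 16 markers, Lyz2, C1qb, Fcer1g and Tyrobp among them, were at 0. Their summed level was 0 CPM in interferon-led cells of outer medulla, 16.5 CPM in cortex, 110 CPM in whole kidney 2 and 0 CPM in whole kidney 1, against 9811 to 15550 CPM in macrophage-like cells of the same libraries. A macrophage marker UMI was in 1.05% of class II-positive and 1.04% of class II-negative interferon-led cells. Dendritic cell markers gave 5 UMIs, T and NK cell markers 2, and B cell and neutrophil markers 0. In the other proximal tubule-like cells a macrophage marker was in 3.91% of positive and 0.974% of negative cells, and in macrophage-like cells in 85.7% of positive and 65.5% of negative ones.

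**Figure D3:**
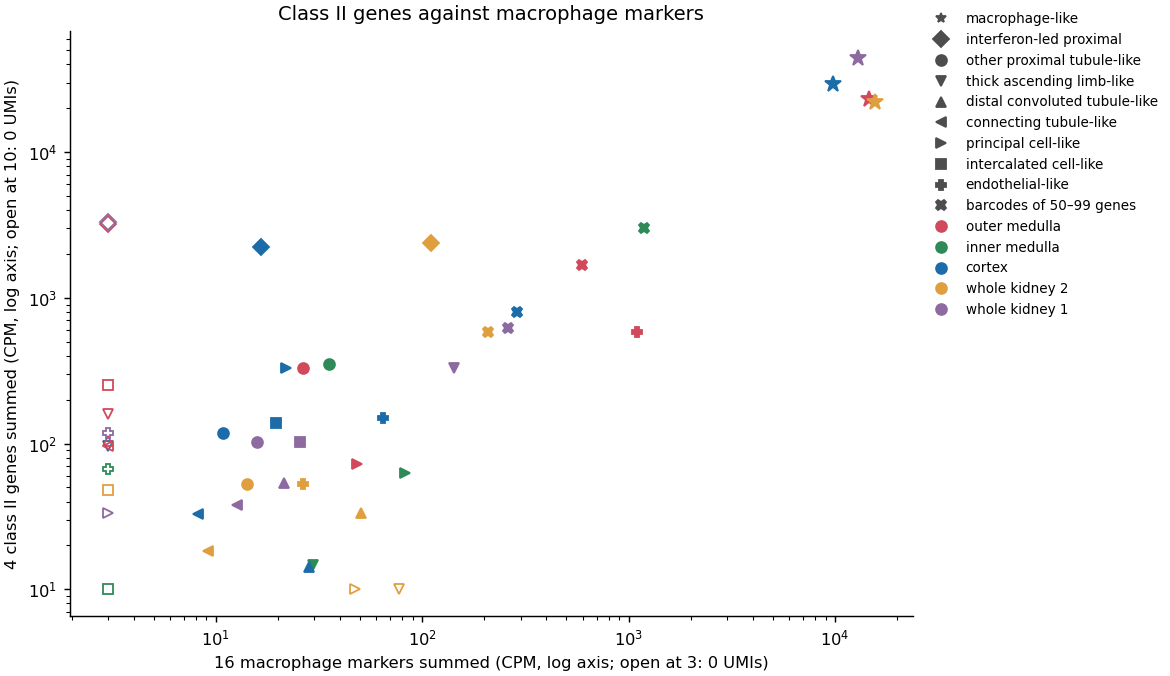
Summed level of the macrophage markers against the summed level of the 4 class II genes, both in CPM on log axes, with 1 point per cell group and library. The interferon-led proximal points have 2223 to 3333 class II CPM with 0 to 110 macrophage marker CPM, while the low-gene barcodes have 584 to 3037 class II CPM with 209 to 1181 macrophage marker CPM.

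The highest interferon-led cell had 25 class II UMIs, and 15 of the 191 cells (7.85%) had at least 10. Of the 95 positive cells, 50 (52.6%, interval 42.1 to 63.0%) had at least 2 of the 4 genes and 11 had all 4. Among the 511 positive other proximal tubule-like cells, 117 (22.9%, 19.3 to 26.8%) had at least 2 and 7 had all 4, and 345 had a single class II UMI. Where a cell had a Cd74 UMI, 74.6% of interferon-led cells also had a UMI of an H2 chain gene, against 27.3% where it had none. In the other proximal tubule-like cells these shares were 36.8% with and 2.80% without a Cd74 UMI. Depth moves with these shares, since positive interferon-led cells had a median of 658 UMIs and negative ones 406, and positive other proximal tubule-like cells 825 and negative ones 513.

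Of the class II loading genes, 7 were measured between the interferon-led and the other proximal tubule-like cells, and they were also kept out of the clustering. The H2-M chains were the 2 past a 2-fold difference on the higher side, as were 3.54% of 9828 genes. H2-DMa was at 81.2 CPM in interferon-led cells (13 UMIs), against 7.42 CPM (55 UMIs) in the others, a 10.9-fold difference (5.48 to 20.3). H2-DMb1 was at 144 CPM in interferon-led cells, against 22.8 CPM in the others, a 6.30-fold difference (3.89 to 9.77). Ifi30 lay past the size on the lower side, as did 4.74% of genes, with 3 UMIs in interferon-led cells, but its interval included no difference. Lgmn, an endosomal protease, was at 1105 CPM in interferon-led cells and 766 CPM in the others, and Ctsl at 1442 CPM in interferon-led cells and 1087 CPM in the others. Ctss was at 0 in interferon-led cells. The list median log2 ratio was 0.40, against −0.02 over all genes.

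None of the 7 regulators measured (Rfx5, Rfxap, Rfxank, Creb1, Nfya, Nfyb and Nfyc) lay past a 2-fold difference. Over all genes, 3.54% lay past it on the higher and 4.74% on the lower side. The median log2 ratio of the 7 regulators was 0.08. In interferon-led cells they had between 0 UMIs (Rfxank) and 6 UMIs (Rfxap). With so few counts and a pseudocount of 10 CPM, a difference could have been missed. Ciita, the transactivator of class II genes, had 7 UMIs in all cells, below the 10 UMIs set for a list gene, and is named because of its role, after its values were seen. Of these, 3 UMIs lay in 2 interferon-led cells, 3 in 3 other proximal tubule-like cells and 1 in a macrophage-like cell. At this depth its level could not be compared between the classes.

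Class I presentation genes were high in the same cells, although they took part in the clustering and are a description of it. Of 13 measured, 10 were past a 2-fold difference on the higher side, where the background was 3.54% of genes, with a median log2 ratio of 2.15, against −0.02 over all genes. Psmb8, a subunit of the immunoproteasome, was at 362 CPM in interferon-led cells, against 3.10 CPM in other proximal tubule-like cells. B2m, the class I light chain, was at 4526 CPM in interferon-led cells and 587 CPM in the others, and the heavy chain gene H2-K1 at 1036 CPM in interferon-led cells and 125 CPM in the others. Of the interferon response list, 8 of 12 were higher, which follows in part from the rule, since 5 of the 8 were among the leading genes that set the cluster apart. They included Irf1, an interferon-induced transcription factor, at 81.2 CPM in interferon-led cells and 2.29 CPM in the others. Ifngr2, a chain of the interferon gamma receptor, was at 12.5 CPM in interferon-led cells, on only 2 UMIs, and 35.6 CPM in the others.

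**Figure D4:**
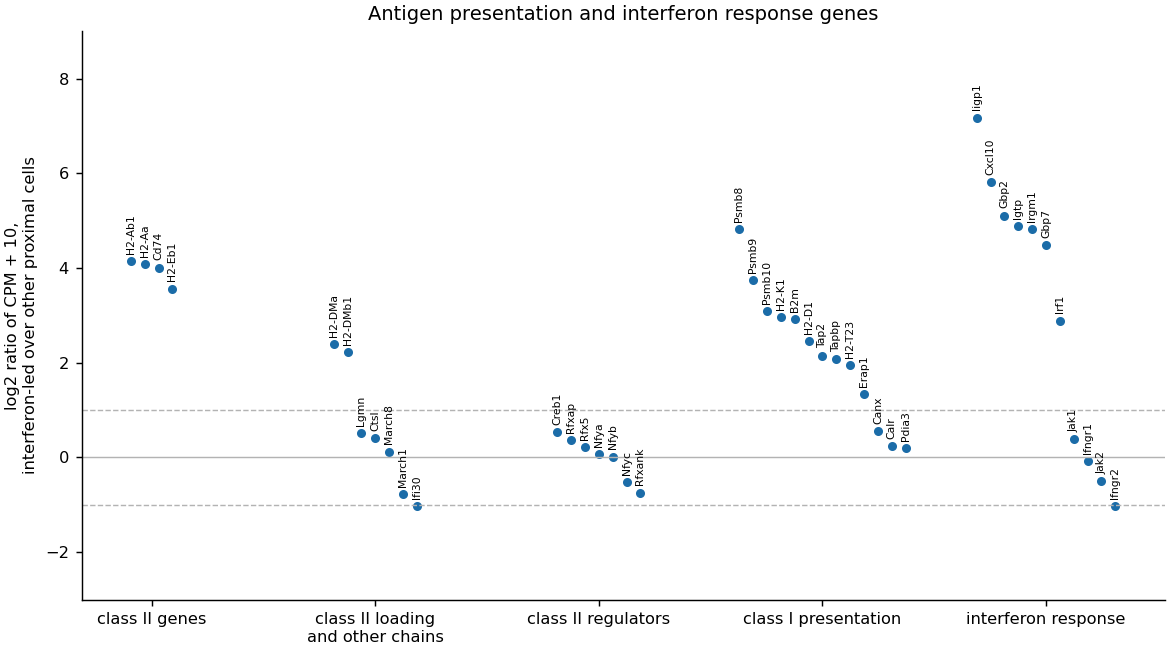
Log2 ratio of interferon-led over other proximal tubule-like cells (CPM with a pseudocount of 10) for measured genes of the lists, with 1 point per gene; 1 interferon response gene is not shown. The 4 class II members lie between 3.57 and 4.15, H2-DMa and H2-DMb1 lie past 1, and the 7 regulators lie within 1 of 0.

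Outside the interferon-led cluster, proximal tubule-like cells with at least 2 interferon list UMIs had a higher class II level than those with fewer. This held in each of 3 bins of depth, with libraries pooled and on few cells. Among those of 600 to 1200 UMIs, the class II level was 118 CPM in 1797 cells with 0 interferon list UMIs, 193 CPM in 273 cells with 1 and 562 CPM in 55 cells with at least 2. The shares positive were 6.46% (5.36 to 7.69%), 7.33% (4.53 to 11.1%) and 14.5% (6.50 to 26.7%) in that order. Among those of 300 to 600 UMIs the levels were 127, 157 and 336 CPM in the same order, and among those of 1200 to 2400 UMIs they were 148, 143 and 549 CPM. In that last bin the shares were 9.40%, 13.1% and 13.8%, so that 63 UMIs in 9 positive cells made up the highest level. The shares did not rise in every library. At 600 to 1200 UMIs in whole kidney 2, 0% were positive with at least 2 interferon list UMIs and 3.75% with 0. At 1200 to 2400 UMIs in outer medulla, these shares were 16.7% and 20.8%. In the other libraries with at least 10 such cells, the share was higher with at least 2 than with 0. Tubule cells outside the proximal tubule were binned in the same way, by 0, 1 and at least 2 interferon list UMIs. At 300 to 600 UMIs they had 63.3, 105 and 1150 CPM, the last on 18 class II UMIs in 4 cells. At 600 to 1200 UMIs they had 64.2, 23.4 and 164 CPM. At 1200 to 2400 UMIs they had 31.2, 0 and 30.5 CPM, on 6, 0 and 1 class II UMIs. These bins were drawn after the data had been seen, and the intervals of the shares of other proximal tubule-like cells overlap within each bin.

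Proximal tubule-like cells fell into 5 further clusters, and all held class II UMIs. The level was 192 CPM (175 to 210) in cells led by the early proximal transporters Slc5a12 and Slc5a2, 161 CPM in Snhg11-led cells, 121 CPM in Car3 and Mdk-led cells, 94.9 CPM in Acaa1b and Kap-led cells and 88.6 CPM (78.0 to 100.2) in cells led by Slco1a1 and Slc7a13, transporters of the late proximal tubule. The interval of the Slc5a12-led cells overlapped that of the Snhg11-led cells (133 to 193) and none of the other 3. This order was not that of each library: in whole kidney 2 the Slc5a12-led cells had 52.8 CPM and the Car3 and Mdk-led cells 78.8 CPM, and in whole kidney 1 the Slc5a12-led cells had 140 CPM and the Snhg11-led cells 172 CPM.

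Tubule cells outside the proximal tubule held 116 class II UMIs in 2843 cells, at 69.2 CPM (57.2 to 83.0), and 77 (2.71%) were positive. The proximal cells without the interferon-led cluster were 1.92-fold (1.58 to 2.35) higher than these. By class, the pooled level was 111 CPM in intercalated-like cells, 109 CPM in thick ascending limb-like cells, 81.2 CPM in principal-like cells, 41.2 CPM in distal convoluted tubule-like cells and 33.1 CPM in connecting tubule-like cells. Intercalated-like and thick ascending limb-like cells did not differ beyond counting error (68.0 to 172 and 72.2 to 159 CPM), nor did distal convoluted and connecting tubule-like cells (24.0 to 66.0 and 16.5 to 59.2 CPM). The lowest share, 1.81% of connecting tubule-like cells at a median of 449.5 UMIs, was within counting error of the 1.99% of distal convoluted tubule-like and the 2.27% of principal-like cells at medians of 449 and 457 UMIs. Of the principal-like cells, 17 of the 19 positive had a single class II UMI, and the other 2 had 15 and 9. With cells thinned to 300 UMIs, the share was 3.06% in other proximal tubule-like, 2.76% in intercalated-like, 2.71% in thick ascending limb-like and 1.21% in connecting tubule-like cells.

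Single cells set several of the library values of these classes. In cortex all 15 class II UMIs of principal-like cells lay in 1 cell of 66. In inner medulla 0 of 39 intercalated-like cells were positive, where 3 positive cells would be a share of 7.69%. Thick ascending limb-like cells were positive in 5.60% in outer medulla, 0.926% in inner medulla, 3.23% in cortex, 0 of 58 cells in whole kidney 2 and 7.69% in whole kidney 1.

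Endothelial-like cells were led by Rgs5, Tm4sf1, Plpp1, Acta2 and Emcn. They were positive in 22.0% of 50 cells in outer medulla, 2.78% in inner medulla and 6.35% in cortex. The shares were 4.26% in whole kidney 2 and 2.78% in whole kidney 1. The mean was 7.63% ± 8.16 (SD, n = 5), and 4.04% without the outer medulla. Their summed level was 208 CPM (141 to 295) on 31 UMIs, 19 of them from outer medulla. In that library the endothelial-like class also held 36 macrophage marker UMIs, in 2 cells, and its class II-positive cells numbered 11; the part of macrophage RNA in this share was not tested. The endothelial-like class further held 71 cells led by the proximal genes Nat8 and Kap and 25 led by the smooth muscle genes Acta2 and Tagln. Those 71 cells held 8 of the 19 positive cells and 10 of the 31 class II UMIs. Proximal tubule markers gave 5294 UMIs in them and endothelial markers 147.

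Barcodes of 50 to 99 genes had a class II level that no tubule class outside the interferon-led cluster reached. In these 28476 barcodes, at a median of 76 UMIs, 4.81% were positive in outer medulla, 4.43% in inner medulla, 2.17% in cortex, 1.84% in whole kidney 2 and 2.38% in whole kidney 1. Their level was 1676 CPM in outer medulla, 3037 CPM in inner medulla, 802 CPM in cortex, 584 CPM in whole kidney 2 and 625 CPM in whole kidney 1, and 1024 CPM (983 to 1066) over all. Tubule cells had 405 CPM in outer medulla, 88.8 CPM in inner medulla, 164 CPM in cortex, 64.3 CPM in whole kidney 2 and 128 CPM in whole kidney 1, below the barcodes of their own library in 5 of 5. The mean log2 ratio of tubule cells over these barcodes was −2.88 ± 1.22 (SD, n = 5), and over the pooled UMIs tubule cells were 6.14-fold lower (5.76 to 6.56), or 8.45-fold lower without the interferon-led cells. All 4 genes were past a 2-fold difference on the lower side, where the background was 1.26% of 11463 genes.

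Interferon-led cells stood above the same barcodes, by 2.68-fold (2.42 to 2.97) pooled. The pooled barcodes, also used for the calls by gene, include those of inner medulla (3037 CPM), where no interferon-led cell lay. The fold was 1.91 in outer medulla, 2.77 in cortex, 4.05 in whole kidney 2 and 5.33 in whole kidney 1. Cd74, H2-Aa and H2-Ab1 were past 2-fold on the higher side, against a background of 2.5% of 8686 genes, and H2-Eb1 had a log2 ratio of 0.61. Endothelial-like cells were 4.92-fold lower (3.46 to 7.26) than the barcodes, with all 4 genes past the size, against a background of 9.41% of 8828 genes on the lower side. With every barcode thinned to 50 UMIs, 49.8% of macrophage-like cells, 11.2% of interferon-led cells, 1.24% of endothelial-like cells, 0.655% of other proximal tubule-like cells and 0.346% of tubule cells outside the proximal tubule were positive, against 2.17% of the barcodes of 50 to 99 genes.

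The class II UMIs of the low-gene barcodes were concentrated. Of 797 positive barcodes 55 had at least 10 class II UMIs, the highest had 30, and 77 had all 4 genes. A macrophage marker was in 192 of the 797 positive barcodes (24.1%), against 0.762% of negative ones, and the markers' level was 382 CPM, against 15.9 CPM in other proximal tubule-like cells. In interferon-led cells 7 of 8 measured macrophage markers were past 2-fold on the lower side of these barcodes, where the background was 13.3% of genes. These markers were not kept out of the clustering, so this count can follow in part from it. The barcodes also include those of inner medulla, where no interferon-led cell lay. Just inside the minimum of 200 genes, 2897 barcodes of 200 to 249 genes had 736 class II CPM and 4.14% positive, and just outside it 4566 barcodes of 150 to under 200 genes had 918 class II CPM and 4.36% positive. Of the 2897 inside, 39 were macrophage-like and 45 interferon-led.

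Over UMIs pooled across libraries, the balance between the I-A chains differed between the populations. H2-Ab1 gave 1.18 UMIs per H2-Aa UMI (0.992 to 1.39) in macrophage-like cells and 2.20 (1.63 to 2.99) in interferon-led cells, with intervals that did not overlap. It gave 2.77 (2.22 to 3.47) in other proximal tubule-like cells, 2.36 (1.13 to 5.30) in tubule cells outside the proximal tubule and 1.11 (0.970 to 1.27) in barcodes of 50 to 99 genes. By library, the macrophage-like ratios were 1.31 in outer medulla, 1.00 in inner medulla, 1.08 in cortex, 1.41 in whole kidney 2 and 1.11 in whole kidney 1. Other proximal tubule-like cells had 1.99 in outer medulla, 3.70 in cortex, 3.42 in whole kidney 2 and, on 45 H2-Ab1 and 9 H2-Aa UMIs, the highest value in whole kidney 1. Interferon-led cells had 2.03 in outer medulla, 2.67 in cortex, 1.00 in whole kidney 2, on 13 UMIs of each gene, and 5.75 in whole kidney 1, on 23 and 4. The 4 other proximal values lay above the macrophage-like ones, whereas the interferon-led value of whole kidney 2 lay among them. The ratio was computed after the data had been seen.

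**Figure D5:**
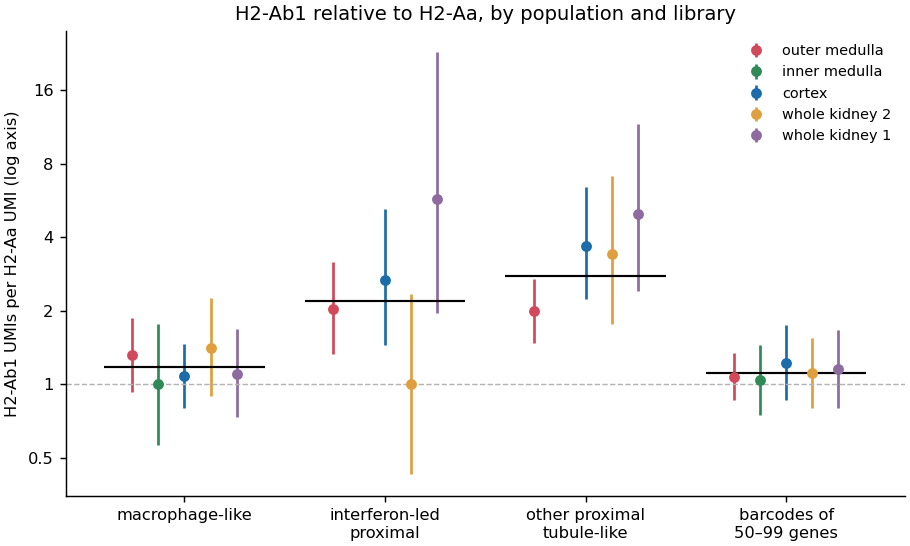
H2-Ab1 UMIs per H2-Aa UMI on a log axis by cell group, with 1 point per library and exact 95% intervals for counting error. The macrophage-like points lie between 1.00 and 1.41 and the points of the low-gene barcodes between 1.04 and 1.23, while the other proximal tubule-like points all lie at 1.99 or above.

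As a share of class II UMIs, H2-Ab1 made up 23.4% in macrophage-like cells, 33.0% in interferon-led cells, 31.2% in other proximal tubule-like cells and 20.3% in low-gene barcodes. H2-Aa made up 19.9% in macrophage-like cells, 66 of 440 UMIs in interferon-led cells, 11.3% in other proximal tubule-like cells and 18.3% in low-gene barcodes. Cd74 varied less, between 41.8% in interferon-led and 46.6% in other proximal tubule-like cells.

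Between kidney regions, tubule cells of the outer medulla had more class II RNA than those of the cortex, at 405 CPM in outer medulla and 164 CPM in cortex (2.47-fold, 2.18 to 2.80, log2 ratio 1.26). H2-Aa differed by 4.23-fold, H2-Ab1 by 2.73-fold and Cd74 by 2.27-fold, and these 3 of 4 genes were past the size, against a background of 0.45% of 9337 genes on the higher side, while H2-Eb1 differed by 1.48-fold. Without the interferon-led cells the fold was 2.62 (2.25 to 3.05). In the 5 other proximal clusters it was 1.93 to 4.32, and higher in outer medulla in each, whereas principal-like cells had a fold of 0.220, set by the single cortex cell with 15 UMIs. The fold was 1.44 (1.15 to 1.80) in interferon-led cells and 7.30 in distal convoluted tubule-like cells, on 6 UMIs in outer medulla and 2 in cortex. In thick ascending limb-like (1.65), intercalated-like (1.83) and connecting tubule-like cells (2.92) the interval included no difference. Endothelial-like cells had 580 CPM in outer medulla and 150 CPM in cortex (fold 3.87, 1.56 to 10.9). Macrophage-like cells did not follow, at 23038 CPM in outer medulla and 29205 CPM in cortex (fold 0.789, 0.676 to 0.920). The low-gene barcodes did, with a fold of 2.09 (1.84 to 2.38), so the level in these barcodes moved with the tubule level, and their part in the result was not tested.

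Whole kidney 2 and whole kidney 1, of the same tissue, differed by nearly as much: tubule cells had 64.3 CPM in whole kidney 2 and 128 CPM in whole kidney 1, a 1.998-fold lower level (1.64 to 2.44) in whole kidney 2. The low-gene barcodes did not follow there, with a fold of 0.933 (0.806 to 1.08). None of the 4 genes was past the size between these libraries, on the log2 scale with its pseudocount, against a background of 0.139% of 9366 genes on the lower side. The difference of outer medulla and cortex is therefore of the order of that between libraries of 1 tissue, and region and library cannot be told apart.

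Tubule cells of the inner medulla had 88.8 CPM and those of the cortex 164 CPM, a 1.84-fold lower level (1.33 to 2.62) with 0 of 4 genes past the size, against a background of 9.45% of 8987 genes on the lower side. The classes differed in number, with 481 principal-like and 92 proximal tubule-like among the 725 tubule cells of the inner medulla. Within the proximal tubule-like cells outside the interferon-led cluster the direction was the opposite, at 352 CPM in inner medulla and 118 CPM in cortex (2.97-fold higher, 1.78 to 4.70), on 20 UMIs of which 13 lay in 1 inner medulla cell. No interferon-led cell lay in the inner medulla, and without these cells the fold was 0.792 (0.554 to 1.11), an interval that includes no difference. Barcodes of 50 to 99 genes went the other way, 3.79-fold higher in inner medulla than in cortex.

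Over 46 sums of 1 class in 1 library, the genes whose log level was most like that of the summed members among 7521 genes were Cd52, a surface glycoprotein of leukocytes (r = 0.765), the lysozyme gene Lyz2 (0.720), the class I light chain gene B2m (0.717), Unc93b1, a chaperone of endosomal Toll-like receptors (0.649), and the apolipoprotein gene Apoe (0.632). The members' correlations among themselves were 0.849 to 0.942. The sums share libraries and the few macrophage-like sums stand far from the rest, so these values describe the order of genes only.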

How the data were processed

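Raw UMI counts per gene and barcode were used as deposited by the authors, 1 table for each of 5 libraries. The submitters' processing notes name build mm9 and Seurat 2.3.1; the aligner is not given in the sources used here, nor is the annotation. Barcodes of at least 200 genes were taken as cells (depths are in the report) and barcodes of 50 to 99 genes as low-gene barcodes. Scrublet in Scanpy 1.11.5, with 5% doublets assumed, marked 22 of 12121 cells (0.182%), which were removed; at this rate it cannot be taken as having worked. Cells were clustered by Leiden (leidenalg 0.10.2, resolution 1.0, 2000 variable genes, 30 components, 15 neighbours, no integration) without 24 class II genes. Clusters were named from 174 listed markers of 17 types by at least 3 markers detected in 10% of cells, and shares may therefore differ from those of another naming.

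Counts were summed by class and library. Log2 ratios used CPM plus 10, and a difference past a log2 ratio of 1 with at least 20 UMIs over both sums counted as a size. No test was made, since each region has 1 library. Thinning was computed exactly, trimmed mean factors came from edgeR 4.0.16, and the steps were tested on simulated data. The members and lists were chosen with earlier results of these data known; the members and every list gene of at least 10 UMIs were counted, and those named come from them, save Ciita, H2-Oa and H2-Ob, which have fewer UMIs and were named after their values were seen, and the leading genes of clusters. Alternatives were a minimum of 300 or 500 genes, marker score classes, class II genes in the clustering, other doublet removal, thresholds of 2 UMIs, thinning, pseudocounts, trimmed mean factors and each library left out. Sub-clusters, the interferon-led rule, the motif letters, the interferon bins and the chain ratio were chosen after seeing the data. The values of 1 list gene and of 1 macrophage-like sub-cluster are not reported here.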

Additional observations from a re-analysis of the deposited data

Results flagged for a closer look

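Barcodes of 100 to under 200 genes enter no class and no comparison of classes or regions; those of 150 or more stand in the report beside the cells just past the minimum. In cortex their class II level was 958 CPM, above the 802 CPM of the barcodes of 50 to 99 genes of the same library (1.195-fold, interval 1.04 to 1.37). In the other libraries the fold was 0.835 (outer medulla), 0.994 (inner medulla), 0.996 (whole kidney 2) and 0.822 (whole kidney 1). The cortex value was picked out because it is a class II signal in barcodes that no comparison of classes or regions used.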

How the results depend on the processing

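Over all results and alternatives run, no direction turned round; of the alternatives on the 8 main results 82 moved a value by less than the spread between libraries or, for a pooled value or 1 library a region, its counting interval, 18 moved it by more, and 5 did not touch the barcodes concerned. The cause of each shift was not tested, except where fewer UMIs or cells are the setting itself. The mean tubule share of 5.67% was 10.1% with at least 500 genes and 0.738% at 50 UMIs. The macrophage-like share of 68.5% was 38.3% with classes by marker score and 49.8% at 50 UMIs, and the endothelial-like share was 25.9% with at least 300 genes, where that class, led by Jchain and Lyz2, also took in macrophage-like cells. The share of low-gene barcodes, 3.12% as a mean over libraries, was 1.40% at 2 UMIs. The log2 ratio of tubule cells over low-gene barcodes was −4.12, and that of outer medulla over cortex 0.68, with class II genes in the clustering, where an unnamed cluster of 488 cells took 176 interferon-led, 83 macrophage-like and 227 other proximal cells; outer medulla over cortex was 0.99 with at least 500 genes. The log2 ratio of macrophage-like over tubule cells was 5.48 with classes by marker score, 6.92 with trimmed mean factors, 7.83 without the interferon-led cluster and 8.49 with C1q and Lyz2-led groups alone. Inner medulla over cortex was −0.31 without the interferon-led cluster.

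With each library left out in turn, the shares were 4.08 to 6.46% in tubule, 66.7 to 71.4% in macrophage-like and 4.04 to 8.85% in endothelial-like cells and 2.70 to 3.45% in low-gene barcodes; the log2 ratios were −3.09 to −2.36 for tubule cells over these barcodes and 7.17 to 8.04 for macrophage-like over tubule cells. The interferon-led cluster held 91 cells with at least 500 genes (64.8% positive), 97 with at least 300 (64.9%) and 145 without the top 5% of doublet scores (55.9%). The macrophage-like class gave no value with at least 300 or 500 genes or with class II genes in the clustering, and the endothelial-like class gave none with at least 500 genes or without the top doublet scores. Most values below 20 UMIs are limited by depth. No paired analysis was possible because each region has 1 library and no result comes from a test.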

Other observations

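Of 59 podocyte-like cells 1 was positive, with 1 H2-Eb1 UMI (34.0 CPM). A cluster of 162 cells led by Bst1, Nr2e3 and Nupr1, 129 of them from inner medulla, took no name, and held 6 class II UMIs (93.9 CPM, 3.09% positive). Of the non-classical class II chain genes, H2-Oa had 4 UMIs in all cells and H2-Ob 2, all in macrophage-like cells.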
